A study of Mus musculus with 36 samples.

Results

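RM-1-BM mouse prostate cancer cells that had been transduced with the SPOP mutant F133V were compared with RM-1-BM cells transduced with an empty vector, both grown alone and both treated with olaparib. The members were chosen by their titles: 3 libraries of F133V cells with olaparib and 3 of vector cells with olaparib, 6 of the 36 libraries of the series. The genotype entry reads "wild type" for the vector cells and "SPOP_F133V" for the mutant cells, and all 6 libraries were made from cells that had received the drug. The same lines grown alone with the vehicle DMSO (3 libraries each) and with olaparib in a transwell opposite RAW264.7 mouse macrophages (3 libraries each) were set beside them. The 3 genotype comparisons share no library. The dose and duration of olaparib, the species and promoter of the SPOP construct, and whether a line was a clone or a pool are not stated in the labels. No label ties the 3 libraries within a group to separate cultures or dishes, so p-values measure the spread between these libraries, which may be technical.

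SPOP is the substrate-binding adaptor of a cullin-3 ubiquitin ligase, and the phenylalanine that this mutation replaces with valine lies in the cleft of its MATH domain that holds the substrate. Mutations of this residue are recurrent in prostate cancer and impair substrate binding. Olaparib blocks PARP1 and PARP2 and traps them on DNA, and cells that are poor in homologous recombination are known to be sensitive to it. The codon that the mutation alters is shown here from the mouse reference, since it defines the comparison. In build GRCm38 the codon lies in exon 5 of 10 of transcript Spop-201, which encodes 374 residues, on the plus strand at chr11:95474529-95474531. Capitals mark the phenylalanine codon in the 51 bases of coding sequence at chr11:95474505-95474555.
Spop, mutated codon: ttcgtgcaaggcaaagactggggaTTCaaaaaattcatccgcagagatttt

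Counts per gene do not show which base stands in this codon, so the genotype of the libraries could not be read from the files. Spop itself (chr11:95414080-95493406) read 113, 112 and 109.6 CPM in the vector libraries and 109, 104 and 95.7 CPM in the F133V libraries, where CPM is the count per 1000000 counts of the library after TMM scaling, the library scaling of edgeR. The groups did not overlap, and the log2 fold change of F133V over vector was -0.11 ± 0.03 (SE, n = 3 against 3, edgeR quasi-likelihood test, adjusted p = 0.00177). This small difference was no longer called without the third F133V library (-0.06, adjusted p = 0.0584), and with trends of gene length and GC content removed it was 0.02 (adjusted p = 0.625). Spop counts were not higher in the transduced mutant cells, and whether the construct is counted at this gene was not tested.

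The 6 libraries held between 32063028 and 40990244 counts in genes, with a median of 35859898. Libraries of the vector group correlated at 0.9989 on log2 CPM, and those of the F133V group at 0.9957 to 0.9974, the widest spread among the 8 cancer groups. Within the F133V group the deviations from the group mean had an SD of 0.066 to 0.089 on the log2 scale over 9804 genes at a mean of at least 5 CPM. Structural RNAs were higher with F133V, at 170.9 to 193 CPM in sum against 58.2 to 62.0 CPM. That sum covers genes annotated as snRNA, scaRNA, ribozyme or misc_RNA, with Rn7sk at 70.6 to 81.6 CPM of it in the F133V libraries. The repeat-bearing gene Gm26917 took 1.24% to 1.58% of gene counts against 0.16% to 0.17%. Macrophage markers summed to 13.5 to 19.6 CPM in the 6 libraries, against 12970 to 15470 CPM in the 12 macrophage libraries. Of 19 epithelial and prostate markers, 14 were under 1 CPM in both groups, among them Pbsn at 0. The other 5 included Krt18, at 128 CPM in vector cells and 62.4 CPM in F133V cells, and Dsp, at 9.71 and 17.7 CPM. Of the 7 markers of this list that were tested, 5 were called lower and 1, Dsp, higher. Over all tested genes 33.2% were called lower and 34.3% higher. Mesenchymal markers summed to 2423 to 2458 CPM in vector cells and 1152 to 1173 CPM in F133V cells. Most of that sum was Vim (1526 and 784 CPM) and Col3a1 (555 and 67.3 CPM). Twist1 and Prrx1 were also called lower. Acta2, Pdgfrb, Col1a1 and Col1a2 were called higher in F133V cells, the 2 last at under 1 CPM. How these library features bear on the results below was not tested. Bulk counts cannot tell fewer cells of a kind from less RNA per cell.

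Most measured genes differed between the lines under olaparib. Of 15962 genes tested, 5472 were called higher in F133V cells (34.3%) and 5292 lower (33.2%), so that 67.4% were called at an adjusted p under 0.05. With the spread estimated from only the groups compared, 4926 were called higher and 5040 lower. The median log2 fold change over all tested genes was 0.01. Falls were the larger differences: 1698 genes were lower by 2-fold or more and 782 higher, and 571 were lower by 4-fold or more against 176 higher. Because most genes were called, the counts of a gene list below are given beside these shares, and the list's median beside the median of 0.01. Numbers in brackets after a gene, and amounts by which it rose, are log2 fold changes of F133V over vector under olaparib, and all verbs of rise and fall refer to genes that passed the test. With length and GC trends removed the log2 fold changes of all genes moved by a median of 0.11. The share of calls that were higher went from 50.8% to 60.9%, with 6722 genes called higher and 4322 lower. List counts and medians given below for that setting are to be read beside these values.

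**Figure D1:**
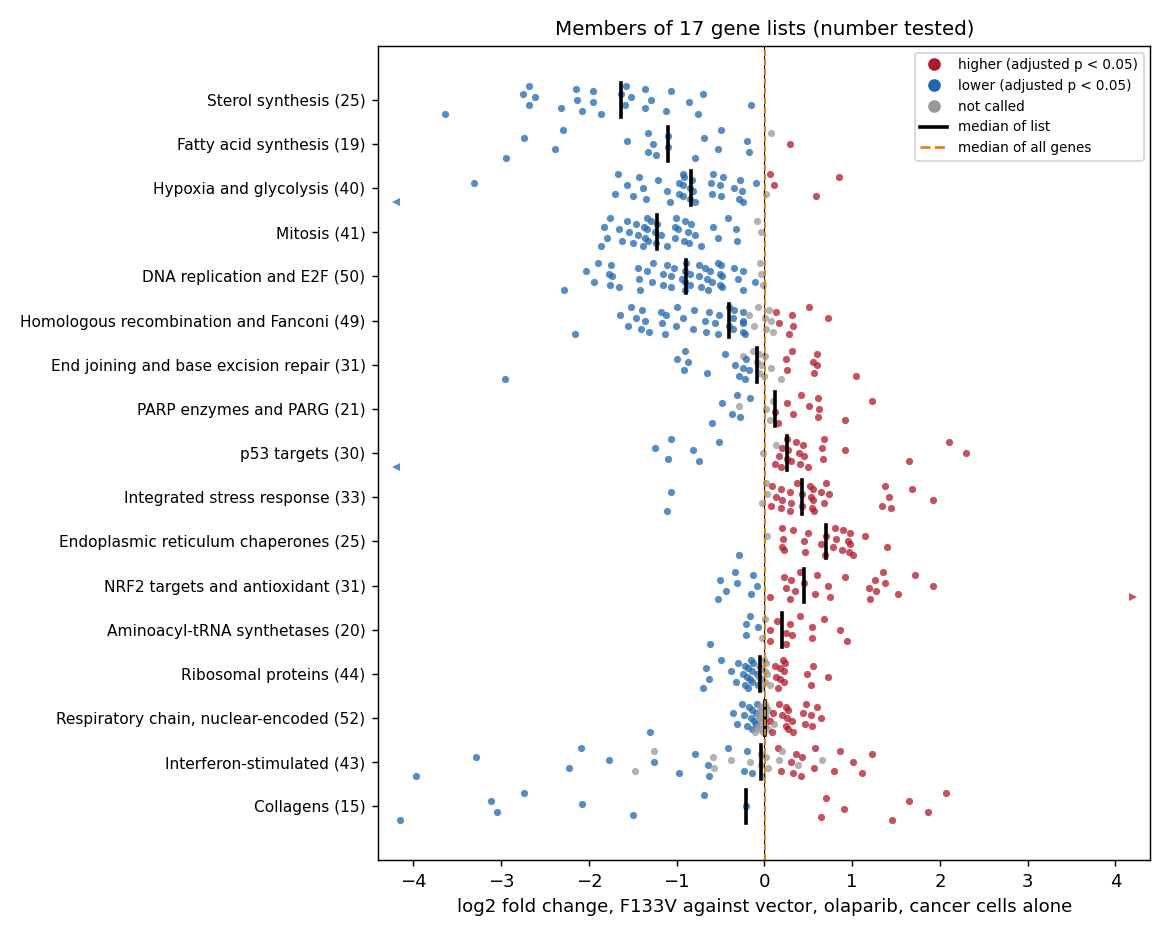
Log2 fold change of F133V over vector under olaparib (horizontal axis) for the tested members of 17 gene lists (vertical axis, with the number tested); each point is a gene, coloured by its call, the black tick is the list median and the dashed line the median of all tested genes. Sterol synthesis, mitosis and replication genes lie to the left of the line, and endoplasmic reticulum chaperones and integrated stress response genes mostly to the right.

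The targets of the drug and the repair pathways around it came first. Parp1, whose product makes most of the poly(ADP-ribose) of a damaged cell and is the main target of olaparib, read 148, 144 and 146 CPM in the vector libraries and 103, 107 and 103 CPM in the F133V libraries. All 3 F133V libraries were below all 3 vector libraries, with a log2 fold change of -0.49 ± 0.03 (adjusted p = 1.1e-18). Parp2, its closest relative, went the other way by 0.32 ± 0.06 (adjusted p = 3.66e-05), from 12.96 ± 0.136 to 16.2 ± 1.18 CPM (SD, n = 3). Parg, which removes the polymer, was higher by 0.51 ± 0.03 (adjusted p = 3.96e-16). Parp3 was lower by a small amount (-0.17), a call lost with length and GC trends removed (-0.04, adjusted p = 0.302). In the whole list of PARP enzymes and PARG, 11 of 21 were called higher and 6 lower, with a median of 0.12. Tnks2, a tankyrase, rose by 0.61, and Parp4, the vault PARP, and Parp8 rose by 0.91 and 0.61.

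Genes of homologous recombination and the Fanconi pathway were mostly lower in F133V cells. Of 49 tested, 34 were called lower and 7 higher, with a median of -0.41. Brca1, which promotes the resection of broken ends, read 23.9, 24.7 and 24.7 CPM in the vector libraries and 8.84, 8.55 and 9.18 CPM in the F133V libraries. Every F133V value was below every vector value, with a log2 fold change of -1.46 ± 0.06 (adjusted p = 1.9e-23). Exo1, a resection nuclease, fell from 15.3 ± 0.735 to 4.88 ± 0.247 CPM (SD, n = 3, log2 fold change -1.65). Rad54l, a DNA translocase, had a log2 fold change of -2.16, and the helicase gene Blm one of -1.31. Brca2, a mediator of strand exchange, was lower by less (-0.80 ± 0.06, adjusted p = 5.7e-16).

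The list of end joining and base excision repair had 8 of 31 genes called higher, 13 lower and a median of -0.09, which became 11 higher, 11 lower and a median of 0.03 with length and GC trends removed. Xrcc5, which encodes the Ku80 end-binding protein, fell (-0.91), and the glycosylase gene Neil3 went from 4.86 ± 0.284 to 0.621 ± 0.0278 CPM (log2 fold change -2.96). Rif1, which with 53BP1 protects ends from resection, rose by 0.60. Trp53bp1 was -0.18, and that call was lost with length and GC trends removed (-0.01, adjusted p = 0.755).

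DNA replication and mitosis genes were lower almost throughout. Among 50 replication and E2F genes 47 were called lower, with a median of -0.90. Of 41 mitosis genes 39 were called lower, with a median of -1.23. Mki67, the Ki-67 proliferation marker, read 213, 221 and 223 CPM in the vector libraries and 58.3, 58.5 and 63.7 CPM in the F133V libraries. The gap between the groups was many times the spread within them, and the log2 fold change was -1.86 ± 0.04 (adjusted p = 5.45e-34). Uhrf1, which keeps DNA methylation through replication, was at 59.8, 63.1 and 61.0 CPM with the vector and 16.5, 15.9 and 17.1 CPM with F133V (-1.89 ± 0.05, adjusted p = 9.85e-31). The catalytic subunit of polymerase epsilon, Pole, had a log2 fold change of -1.76, the helicase subunit Mcm3 one of -1.06 and the ribonucleotide reductase subunit Rrm2 one of -0.90. Top2a, the mitotic topoisomerase, fell (-1.33) and the kinetochore genes Cenpe and Cenpf (-1.62 and -1.50). Mcm2 and Mcm7, picked out after their values were seen, were not called (-0.02 and -0.03), and with length and GC trends removed both were called higher (0.10 and 0.09).

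The promoters of Uhrf1 and Mki67 are printed because each holds a motif of its list close to the start of the gene. Sequences are RefSeq windows of GRCm38.p6, written along the strand of the gene, each 100 bases from the stretch before the start, with the motif in capitals. The E2F motif TTTNGCGC was searched on both strands in the 250 bases before each start, and a gene with several starts counts once if any of them has a match. It was found in 6 of 39 matched replication genes (15.4%) and in 1.31% of all 27025 genes. TTTGAA, the core of the cell cycle homology region bound by the DREAM complex, was found in 12 of 34 matched mitosis genes (35.3%) and in 18.3% of all. CCAAT stood in 26 of the 34 (76.5%) and in 37.5% of all. A match is a string of letters and not evidence of binding.
Uhrf1 (chr17:56304082-56304181, plus strand, TTTNGCGC): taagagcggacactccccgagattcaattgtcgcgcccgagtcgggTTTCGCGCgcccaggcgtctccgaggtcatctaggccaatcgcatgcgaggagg
Mki67 (chr7:135716434-135716533, minus strand, TTTGAA): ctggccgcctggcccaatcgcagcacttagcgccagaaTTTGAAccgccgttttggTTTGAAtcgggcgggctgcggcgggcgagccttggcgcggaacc

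Regulators of the cycle did not follow the same direction. Myc, a transcription factor that drives growth, rose from 10.2, 10.2 and 11.1 CPM in vector libraries to 128, 135 and 148 CPM in F133V libraries. It is encoded at chr15:61985391-61990374. The groups were far apart, with a log2 fold change of 3.71 ± 0.05 (adjusted p = 9.88e-38), which placed Myc among the 12 largest rises. In the whole list of the MYC network and D-type cyclins, which includes Myc, 11 of 18 were called lower and 6 higher, and with length and GC trends removed 8 were lower and 7 higher. Ccnd1, the cyclin of the G1 kinases CDK4 and CDK6, fell (-0.71, adjusted p = 8.57e-27), as did Ccnd2 (-0.42) and Mxd4 (-1.04), whose product competes with MYC for MAX. Cdkn1a, the p21 inhibitor and best-known p53 target, was at 439.5, 438 and 443 CPM in the vector libraries and 309, 319 and 296 CPM in the F133V libraries. It was lower in every F133V library (-0.52 ± 0.02, adjusted p = 3.9e-21). In the whole list of p53 targets, which includes Cdkn1a, 21 of 30 were called higher and 7 lower, with a median of 0.26. The stress gene Gadd45a rose by 1.65, the kinase gene Plk2 by 2.30 and the apoptosis effector Bax by 0.50.

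**Figure D2:**
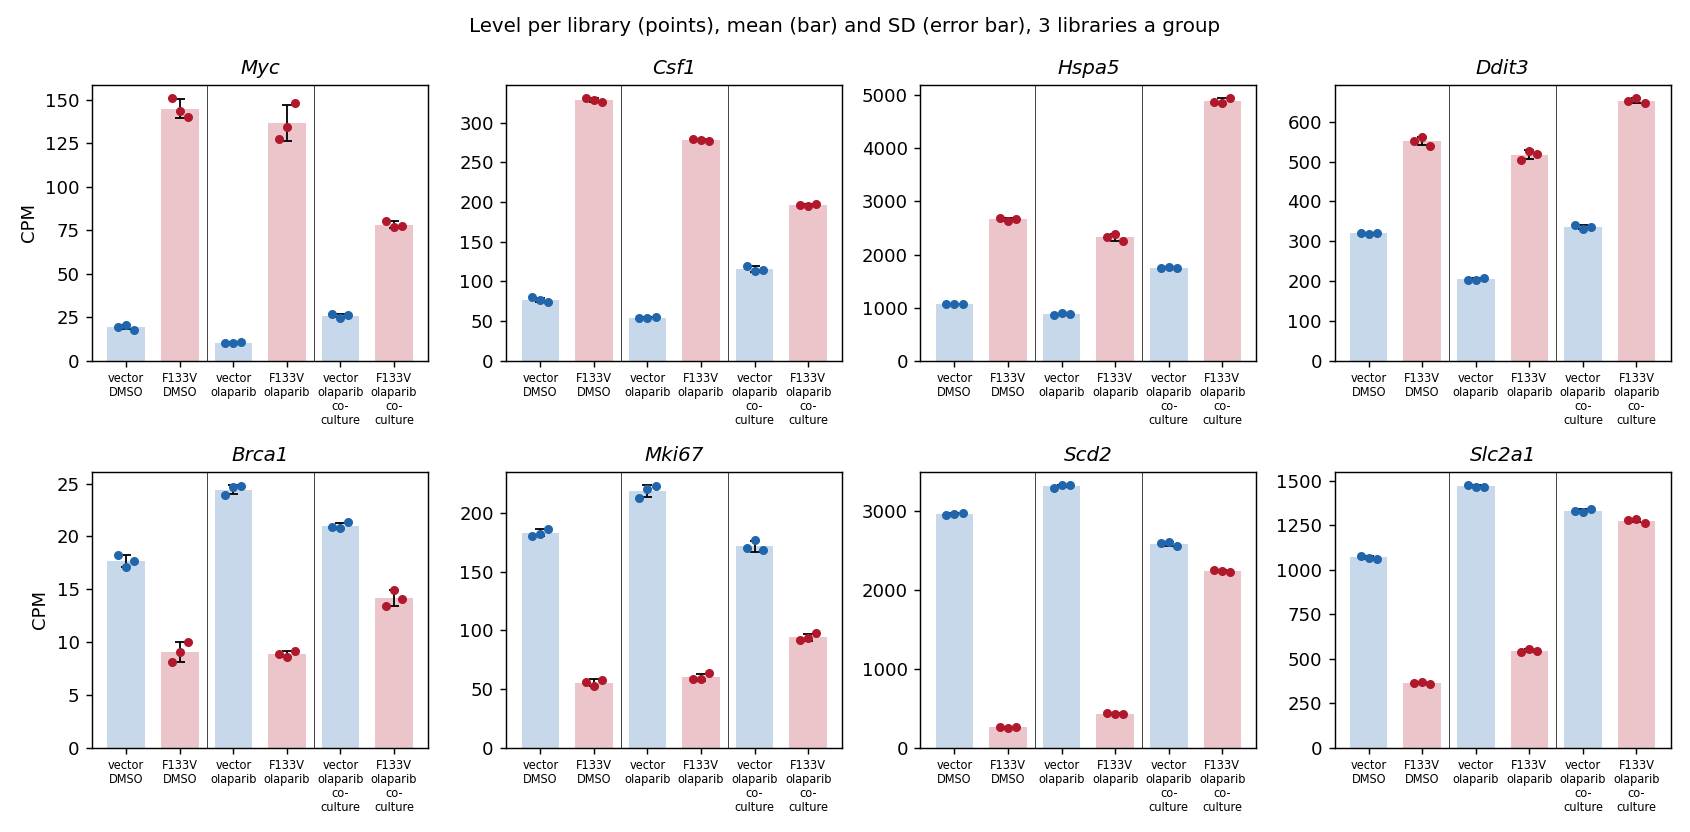
CPM (vertical axes, a panel for each of 8 genes) in vector and F133V cells grown alone with DMSO, alone with olaparib and in coculture with olaparib; points are libraries, bars the mean of 3 and whiskers the SD. Under olaparib alone the F133V libraries lie above the vector libraries for Myc, Csf1, Hspa5 and Ddit3 and below them for Brca1, Mki67, Scd2 and Slc2a1.

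Lipid synthesis genes were lower with few exceptions. All 25 genes of sterol synthesis and uptake were called lower, with a median of -1.63. Cyp51, which demethylates lanosterol, read 263, 258 and 254 CPM in the vector libraries and 66.3, 66.7 and 67.7 CPM in the F133V libraries. The groups were far apart, and the log2 fold change was -1.95 ± 0.03 (adjusted p = 9.73e-39). Srebf2, the transcription factor that switches the pathway on, was chosen after its values were seen and stood at -0.70.

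Fatty acid synthesis was lower in 17 of 19 genes and higher in 1, with a median of -1.10. Scd2, a desaturase that makes monounsaturated fatty acids, was at 3299, 3327 and 3328 CPM in the vector libraries and 443, 429 and 426 CPM in the F133V libraries. The F133V group was lower in all libraries (-2.94 ± 0.02, adjusted p = 5.17e-48). Scd1, its paralog, fell (-2.39), the desaturase gene Fads2 (-2.73) and the elongase gene Elovl6 (-2.29). Scd1 and Scd2 are similar enough in sequence that some reads may be shared between them. Abca1, which exports cholesterol to lipoproteins and is a target of the liver X receptors, read 59.6, 59.5 and 60.1 CPM in the vector libraries and 0.781, 0.592 and 0.477 CPM in the F133V libraries, a log2 fold change of -6.58 ± 0.09 (adjusted p = 9.21e-39). In the list of cholesterol export genes, 4 of 10 were called higher and 5 lower. Mylip, a ubiquitin ligase, fell (-1.995) and the phospholipid remodelling enzyme Lpcat3 (-1.10).

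The promoter of Hmgcs1, an early enzyme of sterol synthesis, is shown because it was the called member with the smallest adjusted p among those that hold TCACNCCAC, a sterol response element motif. That motif was found in 1 of 17 matched sterol genes (5.88%) and in 1.22% of all genes, and CCAAT in 16 of the 17 (94.1%). The gene had a log2 fold change of -1.29 (adjusted p = 1.65e-28).
Hmgcs1 (chr13:119690168-119690267, plus strand): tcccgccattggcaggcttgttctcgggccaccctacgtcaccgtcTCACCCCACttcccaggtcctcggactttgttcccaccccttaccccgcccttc

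Hypoxia and glycolysis genes were lower in F133V cells. Of 40 tested, 35 were called lower and 4 higher, with a median of -0.83. Slc2a1, the GLUT1 glucose transporter, read 1476, 1466 and 1465 CPM in the vector libraries and 538, 553 and 544 CPM in the F133V libraries. All F133V libraries were below all vector libraries, with a log2 fold change of -1.43 ± 0.02 (adjusted p = 9.88e-38). Egln3 and Egln1 encode the prolyl hydroxylases PHD3 and PHD2 that mark HIF for destruction, and they fell (-1.67 and -1.38). Pdk1, which holds pyruvate back from the mitochondria, had a log2 fold change of -1.56. Slc2a3, another glucose transporter, was at 361 ± 4.14 and 128 ± 6.05 CPM (SD, n = 3, -1.50). The list extremes, named after their values were seen, were Car9, a hypoxia-induced carbonic anhydrase (-4.95), and the aldolase gene Aldoc (-3.31). By contrast Slc2a5, the fructose transporter GLUT5 and no member of the list, was among the largest rises, at 9.91, 10.1 and 9.22 CPM in the vector libraries and 168, 175 and 166 CPM in the F133V libraries. Its log2 fold change was 4.12 ± 0.04 (adjusted p = 1.51e-43).

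ACGTG, the core of the hypoxia response element, stood in 22 of 36 matched hypoxia and glycolysis promoters (61.1%) and in 18.5% of all. The promoter of Slc2a1 is printed as the example with the smallest adjusted p.
Slc2a1 (chr4:119108645-119108744, plus strand): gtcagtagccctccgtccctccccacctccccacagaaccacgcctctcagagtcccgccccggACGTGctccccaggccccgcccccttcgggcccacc

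Genes of the unfolded protein response in the endoplasmic reticulum were higher in F133V cells. Of 25 chaperones and folding enzymes, 23 were called higher and 1 lower, with a median of 0.71. Hspa5, the chaperone BiP, read 869, 891 and 879.6 CPM in the vector libraries and 2334, 2389 and 2250.0 CPM in the F133V libraries. The groups did not overlap (1.40 ± 0.02, adjusted p = 9.27e-37). Hsp90b1, the GRP94 chaperone, rose by 1.01, the calcium-binding chaperone Calr by 0.96 and the disulfide isomerase Pdia4 by 0.98.

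The integrated stress response, which runs through phosphorylation of eIF2-alpha and the factor ATF4, was higher in 28 of 33 genes and lower in 2, with a median of 0.43. Ddit3, the CHOP transcription factor, was at 204, 202 and 207 CPM in the vector libraries and 504, 527 and 519.8 CPM in the F133V libraries. Its log2 fold change was 1.34 ± 0.02 (adjusted p = 1.71e-36). Ppp1r15a, the GADD34 subunit that reverses the phosphorylation, rose by 1.68, and the amino acid carrier subunit Slc3a2 by 1.44. Its partner Slc7a11, which imports cystine for glutathione and also belongs to the NRF2 list, rose from 167, 163 and 163 CPM to 649, 585 and 633 CPM (1.92 ± 0.03, adjusted p = 2.69e-37). Aminoacyl-tRNA synthetases were higher in 13 of 20 and lower in 5, with Rars at 0.94, Wars at 0.87 and Nars at 0.54.

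NRF2 targets and other antioxidant genes were higher in 23 of 31 and lower in 8, with a median of 0.45. Txnrd1, thioredoxin reductase, rose from 212 ± 0.943 to 547 ± 12.9 CPM (SD, n = 3, 1.37 ± 0.02). The glutathione transferase Gsto1 rose by 1.21, and Abcc4, an efflux pump, by 1.35. Cytosolic heat shock genes were called higher in 10 of 19 and lower in 5. The paralogs of HSP90 went apart: Hsp90aa1 rose by 0.68 and Hsp90ab1 fell (-0.83).

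Promoters of Hspa5 and Slc7a11 illustrate the motifs of these lists. The endoplasmic reticulum stress element, CCAAT and CCACG spaced by 9 bases, was found in 9 of 22 matched chaperone genes (40.9%) and in 0.13% of all genes. TGATGNAA, a motif bound by ATF4 with C/EBP partners, was found in 8 of 29 matched stress response genes (27.6%) and in 3.91% of all. CCAAT is part of the first motif, so a match to it is also a match to CCAAT. TGACNNNGC, the antioxidant response element, was found in 6 of 25 matched NRF2 and antioxidant genes (24%) and in 11.5% of all.
Hspa5 (chr2:34771984-34772083, plus strand): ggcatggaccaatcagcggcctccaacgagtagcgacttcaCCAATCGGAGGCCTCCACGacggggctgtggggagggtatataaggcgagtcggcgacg
Slc7a11 (chr3:50443617-50443716, minus strand): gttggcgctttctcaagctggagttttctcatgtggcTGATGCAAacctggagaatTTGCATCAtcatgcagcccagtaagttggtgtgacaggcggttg

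Ribosome and mitochondrial genes showed smaller differences. Ribosome biogenesis genes were higher in 19 of 30 and lower in 6, with the nucleolar gene Gnl3 at 0.71. Of 44 ribosomal protein genes 13 were called higher and 20 lower. With length and GC trends removed it was 21 higher and 15 lower, and calls over all genes also moved toward higher. Opposite examples were Rpl15 (0.72) and Rpl11 (-0.67). Nuclear genes of the respiratory chain had a median of 0.00, with 19 of 52 higher and 14 lower. Uqcrh, a complex III subunit, was the lowest of the list (-1.30). The mitochondrial ribosomal RNA mt-Rnr2 was higher (1.36 ± 0.05), while the messenger mt-Nd1 was lower (-0.52 ± 0.07). Rn7sk, the 7SK RNA that restrains the elongation kinase P-TEFb, read 5.47, 5.95 and 5.36 CPM in the vector libraries and 76.5, 81.6 and 70.6 CPM in the F133V libraries (3.77 ± 0.06, adjusted p = 1.69e-36). Rpph1, the RNA of ribonuclease P, rose by 3.74. Both are short RNAs without a poly(A) tail. They are counted in the sum of structural RNA given above, so that sum is not a separate observation.

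Signals to and from immune cells were mixed. Csf1, the cytokine on which macrophages depend and whose gene lies at chr3:107741048-107760469, read 53.7, 54.3 and 55.3 CPM in the vector libraries and 279.9, 278 and 277 CPM in the F133V libraries. The values within each group lay within a few CPM of each other and the groups far apart, with a log2 fold change of 2.35 ± 0.03 (adjusted p = 2.61e-40). Among 10 chemokines and growth factors tested of 20 listed, Csf1 was the only one called higher and 6 were called lower. Cx3cl1, the fractalkine chemokine, fell from 65.7 ± 0.449 to 19.6 ± 1.39 CPM (SD, n = 3, -1.74), and Ccl2, a monocyte attractant, from 2.57, 3.23 and 2.52 CPM to 0.350, 0.651 and 0.626 CPM (-2.36 ± 0.19). Ccl5 was near its floor (0.255 ± 0.133 against 0.0775 ± 0.0632 CPM), its groups overlapped, and its call was lost without vector library 2, F133V library 1 or F133V library 2 (adjusted p = 0.132, 0.075 and 0.0869). The alarmin Il33 had 209 counts in the vector libraries and 2 in the F133V libraries, a 91.4-fold difference with an exact 95% interval of 25.0 to 760, which covers counting error only. Il6 had 2 counts against 11, and neither Tnf nor Ifnb1 had a count in the 6 libraries. Cxcl10 was too low to be tested.

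Inflammatory genes under NF-kB control divided evenly, 10 of 23 higher and 10 lower. Ptgs2, the inducible prostaglandin synthase COX-2, rose from 205, 199 and 203 CPM to 995, 931 and 1005 CPM (2.27 ± 0.03, adjusted p = 2.58e-40). Ptges, which makes prostaglandin E2 from its product, fell (-1.47). The adhesion molecule Vcam1 rose by 1.46 and Ier3 fell (-1.62). Stat3, the transcription factor of IL-6 type cytokines, was at 133.2, 132 and 131 CPM in the vector libraries and 64.5, 67.8 and 70.8 CPM in the F133V libraries (-0.97 ± 0.03, adjusted p = 4.09e-26), and 10 of the 17 genes of its axis were lower and 5 higher. The receptor subunit Il6st and the kinase gene Jak2 were among those that rose (0.49 and 1.32).

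PARP inhibition is known to engage the cGAS-STING sensor of cytosolic DNA, and its genes were listed for that reason. Of 14 tested, 6 were higher and 5 lower. Tmem173, the STING gene, fell from 37.7 ± 1.49 to 29.3 ± 0.755 CPM (SD, n = 3, -0.36 ± 0.04, adjusted p = 2.2e-09). Mb21d1, the cGAS gene, was not called (0.19 ± 0.09, adjusted p = 0.082), but was with length and GC trends removed (0.31, adjusted p = 0.00405). Tbk1, the kinase below STING, rose by 0.42, and Enpp1, which degrades cGAMP, fell from 19.3 ± 0.0764 to 1.31 ± 0.159 CPM (-3.88). Interferon-stimulated genes stood at 14 higher and 14 lower of 43, with a median of -0.04. The sign of this median was not stable: it was 0.03 without F133V library 1, -0.13 without F133V library 2, and 0.07 with length and GC trends removed, where 16 were higher and 10 lower. Oas3 fell (-3.97), Usp18 (-2.09) and Samd9l (-1.77), while the RNA sensor gene Ddx58 rose by 0.79.

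Antigen presentation genes of class I were called higher in 6 of 14 and lower in 4. H2-K1, a classical class I heavy chain, fell (-1.22) as did Tapbp (-0.77), which loads peptides. Class I genes resemble each other in sequence, which makes the value of H2-K1 uncertain. Cd274, the checkpoint ligand PD-L1, was higher in all F133V libraries, 11.7, 12.2 and 11.3 CPM against 6.85, 6.74 and 8.01 CPM (0.71 ± 0.08, adjusted p = 1.83e-09). Nt5e, which makes adenosine from AMP, fell (-3.30).

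Matrix, shape and lineage genes held some of the largest differences in both directions. Collagen genes were called higher in 7 and lower in 8 of 15. Col3a1, a fibrillar collagen, read 559, 549 and 556 CPM in the vector libraries and 67.0, 68.1 and 66.6 CPM in the F133V libraries (-3.04 ± 0.03, adjusted p = 3.91e-45). The chains of collagen VI went apart, Col6a1 falling (-2.74) and Col6a3 rising by 2.07. Fn1, fibronectin, fell from 9151, 9284 and 9271 CPM to 2866, 2930.0 and 2989 CPM (-1.66 ± 0.02), and the protease inhibitor Serpine2 (-2.53). The proteoglycan Bgn and the matricellular Sparc rose by 1.77 and 1.90. Vim, the mesenchymal intermediate filament, fell (-0.96), while Snai2, a repressor of epithelial genes, rose by 1.53 and Acta2, smooth muscle actin, by 3.62. Tgfbi, named for its induction by TGF-beta, fell (-1.88), and 13 of 22 genes of that pathway were lower against 5 higher. Keratins of simple epithelia were lower: Krt8 went from 31.9, 30.2 and 32.1 CPM to 0.296, 0.266 and 0.239 CPM, Krt19 fell (-2.22) and Krt18 (-1.04). Krt8 and Krt18 encode partners in the same filament, and their differences were of unlike size.

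Of the genes of the IGF, FGF and EGF systems, 7 of 23 were called higher and 7 lower. This became 12 and 6 with length and GC trends removed, where calls over all genes also moved toward higher. Igfbp4, a binding protein, rose by 0.64, and Irs1, an adaptor of the insulin and IGF1 receptors, fell (-0.87). Igfbp5, a binding protein of the insulin-like growth factors, fell from 51.0, 50.5 and 51.7 CPM to 0.673, 0.828 and 0.835 CPM (-6.03 ± 0.10), as did Tgfa (-1.78), a ligand of the EGF receptor. Feedback genes of the ERK pathway were lower in 10 of 18 and higher in 5, with the ETS factors Etv4 and Etv5 at -0.91 and -0.63. Fosl1, an AP-1 subunit and itself an ERK target, rose by 1.17, as did the immediate early genes Klf4 (1.24) and Atf3 (1.37). Over the AP-1 list 10 of 23 were higher and 9 lower.

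Transcripts of SPOP ligase subunits and reported substrates were higher in 13 of 26 and lower in 7, with a median of 0.08. The lowest members were the cell cycle genes Ccne1 (-1.44) and Cdc20 (-1.44), and Lats1, a Hippo kinase, rose by 0.37. The ligase acts on proteins, whose levels were not measured. Lysosome genes were higher in 16 of 30 and lower in 10, and apoptosis genes in 9 and 12 of 27. The BH3-only gene Bmf fell (-2.95) and the BAX relative Bok (-1.93). Drug efflux genes, of interest because P-glycoprotein exports olaparib, were called higher in 4 of 8 and lower in 3. Abcb1b, a P-glycoprotein gene, fell from 16.8 ± 0.806 to 10.5 ± 0.793 CPM (SD, n = 3, -0.68). Its twin Abcb1a was near its floor at 0.241 ± 0.0629 against 0.0993 ± 0.147 CPM with overlapping groups (adjusted p = 0.0493), and that call was lost without vector library 1, vector library 3, F133V library 1 or F133V library 2 (adjusted p = 0.162, 0.0796, 0.295 and 0.2). Abcc5 and Abcc1, which export glutathione conjugates and nucleotides among others, rose by 1.35 and 0.40.

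Among the largest differences not yet described, the rises included Oaf, from 0.243 ± 0.0973 to 6.10 ± 0.637 CPM, the transcription factor Tbx1 (4.25), the natriuretic peptide receptor Npr2 (4.18) and the lipid phosphatase Inpp4b (3.71). Rnf150, a ring finger gene, had 828 counts in the vector libraries and 0 in the F133V libraries. Against a floor of 3 counts over the 3 F133V libraries it was at least 241-fold lower. The nuclear receptor Rora fell from 5.93 ± 0.507 to 0.0487 ± 0.0354 CPM and the matrix protein Tnr, tenascin-R, from 26.2 ± 0.782 to 0.520 ± 0.169 CPM. Plekha6 (-6.76), Cpne8 (-5.86), the protocadherin Pcdh15 (-5.88) and dermatopontin, encoded by Dpt (-5.58) were also among the 12 largest falls.

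Whether olaparib altered the difference between the lines was tested by an interaction, the F133V-minus-vector difference with olaparib less that with DMSO. It called 2122 genes positive (13.3%) and 1745 negative (10.9%), 24.2% of the 15962 tested. With DMSO alone, 5378 genes were called higher (33.7%) and 5431 lower (34%), or 67.7% in all. Of the genes called in both, 8788 went the same way and 212 the opposite way. Only 185 interaction calls reached 2-fold. Across 9804 genes at a mean of at least 5 CPM the fold changes correlated at r = 0.944 (Spearman 0.912), a description over genes that are not independent. Library scaling bears on this split: with library size alone, 82.7% of interaction calls were positive against 54.9%. Gm26917 took 3.76% to 3.91% of gene counts in F133V libraries with DMSO and 1.24% to 1.58% with olaparib. Their structural RNA sums were 363.6 to 386.9 CPM and 170.9 to 193.4 CPM. In vector libraries those sums were 62.36 to 65.79 CPM with DMSO and 58.23 to 61.95 CPM with olaparib. The part of these RNAs in the interaction was not tested.

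**Figure D3:**
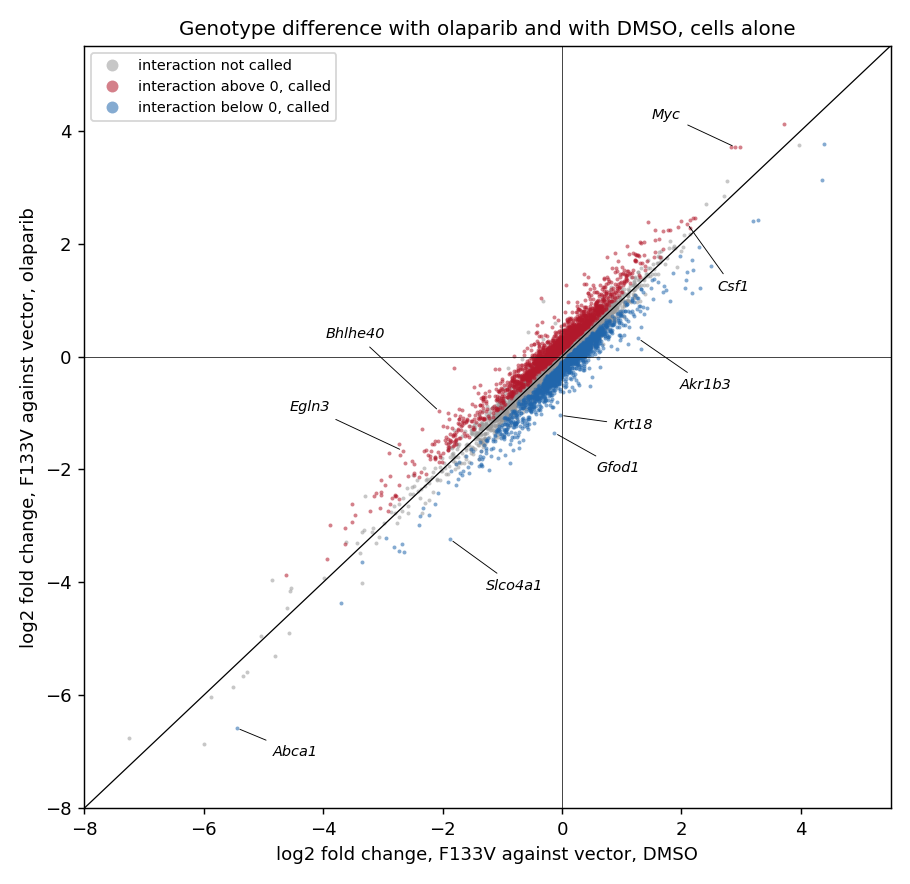
Log2 fold change of F133V over vector with DMSO (horizontal axis) and with olaparib (vertical axis) for 9804 genes at a mean of at least 5 CPM over the 24 cancer libraries; each point is a gene, coloured by its interaction call. Most genes lie along the diagonal, with interaction calls on both sides of it.

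The difference between the lines in replication and mitosis genes was wider with olaparib than with DMSO. The interaction was negative in 37 of 50 replication genes and 28 of 41 mitosis genes, and the list medians went from -0.53 with DMSO to -0.90 with olaparib and from -0.91 to -1.23. Mki67 stood at 183 ± 3.13 and 55.5 ± 2.77 CPM in vector and F133V cells with DMSO and at 219 ± 5.23 and 60.2 ± 3.06 CPM with olaparib. Its level in vector cells was thus higher with olaparib than with DMSO, and its level in F133V cells was not lower. Of homologous recombination genes 15 of 49 had a negative interaction and 1 a positive one. Without the 2 vector DMSO libraries that hold macrophage transcripts the median interaction of this list was -0.171, against -0.165 with them. That fit leaves 1 vector DMSO library, and fewer genes of the list were called in it. With library size alone as the scaling 9 were negative. Brca1 had an interaction of -0.50 ± 0.09 (adjusted p = 2.41e-05): it stood at 17.7 ± 0.552 and 9.04 ± 0.924 CPM in vector and F133V cells with DMSO, and at 24.4 ± 0.445 and 8.86 ± 0.319 CPM with olaparib. Exo1 had one of -0.83. Parp1 was -0.17, a call lost with library size alone (-0.07). Ribosomal protein genes were negative in 34 of 44, and heat shock genes in 11 of 19. With library size alone the ribosomal protein count was 18, the heat shock count 9, and replication and mitosis had 32 and 20. Negative calls over all tested genes also went from 1745 to 883 with that scaling.

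The integrated stress response leaned the other way, with a positive interaction in 25 of 33 genes and a negative one in 2. For Ddit3 the F133V-minus-vector difference was 0.78 with DMSO and 1.34 with olaparib, an interaction of 0.56 ± 0.03 (adjusted p = 3.01e-17). Its levels were lower with olaparib than with DMSO in both lines. Vector libraries read 321.4, 318.7 and 319.9 CPM with DMSO and 203.5, 202.1 and 206.9 CPM with olaparib. F133V libraries read 552.1, 560.5 and 540.1 CPM with DMSO and 504.2, 527.4 and 519.8 CPM with olaparib. Myc, already higher with DMSO by 2.90, had an interaction of 0.80 ± 0.08 (adjusted p = 4.02e-10). In vector cells Myc read 19.52, 20.53 and 17.96 CPM with DMSO and 10.19, 10.17 and 11.09 CPM with olaparib. In F133V cells it read 151.1, 143.6 and 140.3 CPM with DMSO and 127.5, 134.6 and 148.1 CPM with olaparib. Hypoxia and glycolysis genes had a positive interaction in 20 of 40, which for genes that were lower in both conditions is a smaller difference with olaparib. Egln3 was at 448 ± 3.86 and 70.8 ± 1.75 CPM with DMSO and at 595 ± 2.62 and 187 ± 5.99 CPM with olaparib (0.99 ± 0.04, adjusted p = 1.11e-21). Bhlhe40, a hypoxia-induced repressor, had a positive interaction as well (1.08 ± 0.04, adjusted p = 1.2e-21). Other positive interactions were those of Angptl2 (0.80), Tgfbi (0.75), Scd2 (0.58) and the carbonic anhydrase Car6 (0.87). NRF2 targets had a negative interaction in 18 of 31 and a positive one in 5, which became 13 and 11 with library size alone. Over all tested genes that scaling gave 883 negative and 4207 positive calls. Collagens had a positive interaction in 8 of 15.

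Other genes differed in direction or size between the conditions. Krt18 was not called with DMSO (-0.03, adjusted p = 0.425; -0.12 and called with library size alone) and was lower with olaparib, an interaction of -1.01 ± 0.05 (adjusted p = 1.39e-18). Pcx, pyruvate carboxylase, was higher in F133V cells with DMSO (28.0 ± 0.566 and 38.9 ± 1.39 CPM in vector and F133V) and lower with olaparib (39.4 ± 1.17 and 27.4 ± 1.11 CPM), an interaction of -1.003. Anpep, aminopeptidase N, was lower with DMSO (-0.46) and higher with olaparib by 0.22, an interaction of 0.69. Akr1b3, aldose reductase, was at 108 ± 2.44 and 260.5 ± 3.44 CPM with DMSO and 83.4 ± 2.92 and 104 ± 4.32 CPM with olaparib (-0.95). Slco4a1, an organic anion transporter, had the most negative estimate among the 8 negative calls with the smallest adjusted p (-1.36), followed by Gfod1 (-1.22). Hspa4l, an HSP110 chaperone (-0.79), the phosphatidate phosphatase Lpin2 (-0.59) and the semaphorin receptor Nrp2 (-0.42) completed that group.

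Whether coculture with macrophages altered the difference between the olaparib-treated lines was tested by a second interaction, the difference in cells alone less that in coculture. It called 4006 genes positive (25.1%) and 3485 negative (21.8%), 46.9% of those tested, with 1149 at 2-fold or more. In sterol synthesis 23 of 25 genes had a negative interaction, and the median went from -1.63 alone to -0.53 in coculture. Cyp51 stood at 204 ± 2.01 and 180.2 ± 2.07 CPM in vector and F133V cells in coculture, a log2 fold change of -0.18, against -1.95 alone. Scd2 stood at -0.21 in coculture against -2.94 alone (-2.73 ± 0.03, adjusted p = 3.05e-42). Hypoxia and glycolysis genes had a negative interaction in 38 of 40, with a median of -0.05 in coculture. Slc2a1 was -0.06 in coculture, and Slc2a3 reversed, from -1.50 alone to 1.22. The peptidase gene Ace reversed as well (-2.46 and 0.69).

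The rise of Csf1 was smaller in coculture, 0.76 against 2.35 (1.60 ± 0.04, adjusted p = 1.33e-29), with vector cells at 116 ± 3.57 CPM there and F133V cells at 197 ± 1.41 CPM. Myc behaved alike, 1.59 against 3.71 (2.12 ± 0.08). Mitosis genes had a negative interaction in 38 of 41, with a median of -0.37 in coculture. Endoplasmic reticulum chaperones differed more in coculture, with a median of 1.02 and a negative interaction in 21 of 25. Nuclear respiratory chain genes had a positive interaction in 48 of 52. Ly6c1 and Ly6a, surface proteins of the Ly6 family, were higher in F133V cells grown alone (0.88 and 1.15) and lower in coculture (-1.65 and -1.19). The structural RNA sum in F133V libraries was 98.1 to 104 CPM in coculture with olaparib, against 170.9 to 193 CPM alone, and its part in these differences was not tested.

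**Figure D4:**
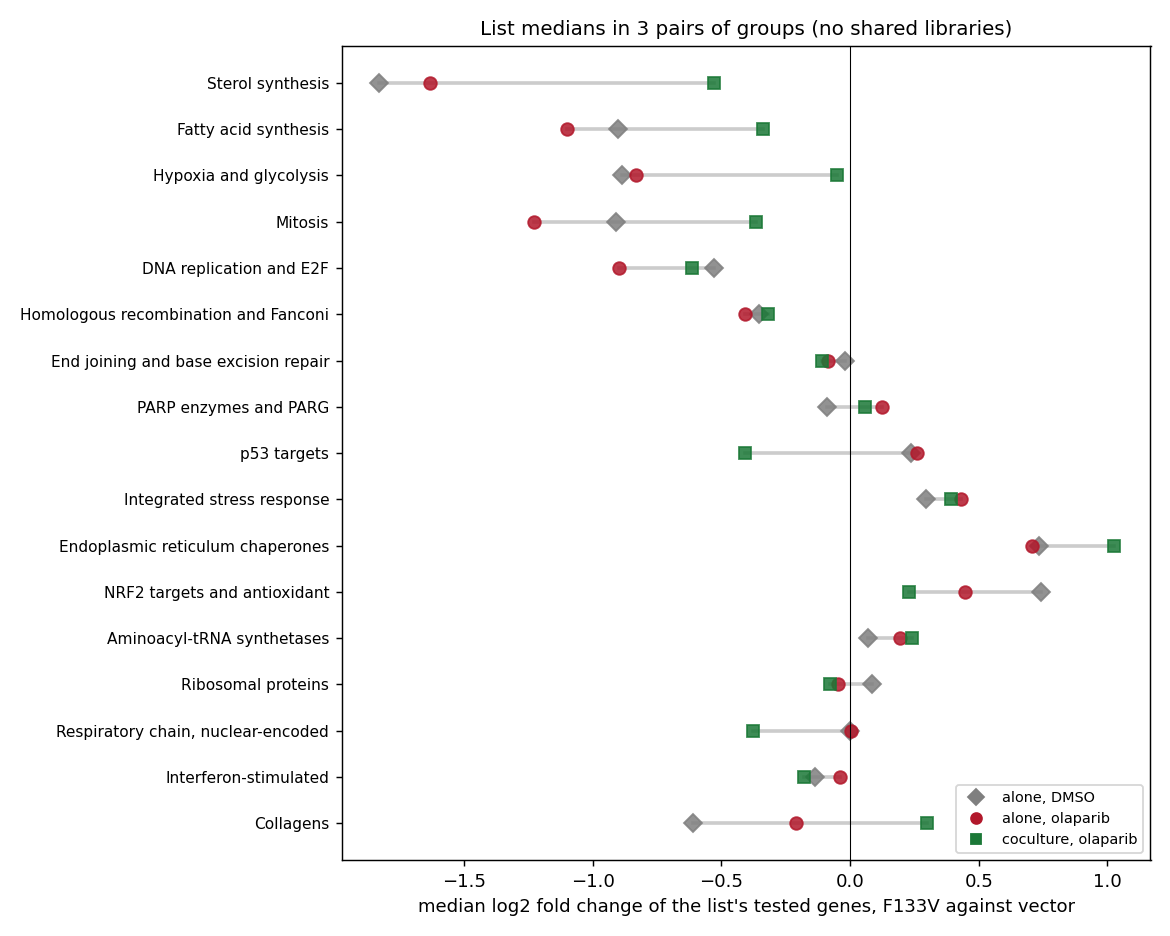
Median log2 fold change of F133V over vector (horizontal axis) for the tested members of gene lists (vertical axis) in cells alone with DMSO, alone with olaparib and in coculture with olaparib; each marker is the median of a list in 1 condition. Sterol synthesis and hypoxia medians lie closer to 0 in coculture, and replication and mitosis medians are lowest alone with olaparib.

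The differences were spread unevenly over the chromosomes. On chromosome 4, 136 of 1000 tested genes were called higher and 564 lower, with a median of -0.30. On chromosome 19 it was 310 higher and 97 lower of 532 (median 0.31), on chromosome 14 261 and 105 of 500 (0.24), and on chromosome 15, which carries Myc, 286 and 151 of 580 (0.19). With DMSO the medians of chromosomes 4, 19, 14 and 15 were -0.28, 0.29, 0.25 and 0.19. In bins of 20 Mb the median was below 0 in 6 of 8 bins of chromosome 4, and above 0 in all 6 of chromosome 14, all 6 of chromosome 15 and all 3 of chromosome 19. DNA copy number was not measured.

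**Figure D5:**
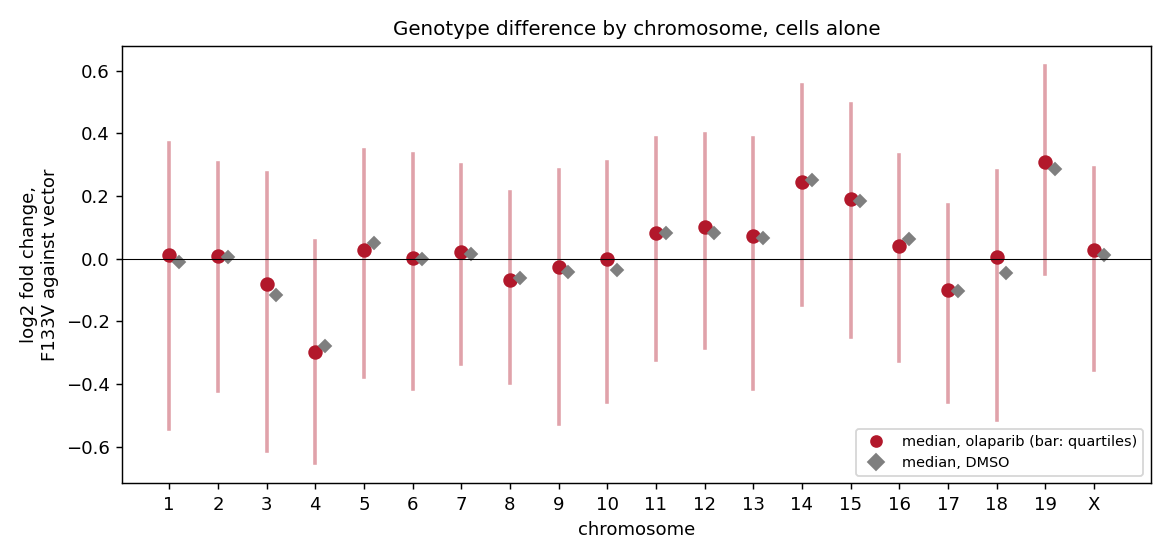
Median log2 fold change of F133V over vector (vertical axis) of tested genes on each of chromosomes 1 to 19 and X (horizontal axis). Red circles are medians with olaparib, with bars from the lower to the upper quartile, and grey diamonds are medians with DMSO. Chromosome 4 lies lowest and chromosome 19 highest, with olaparib and DMSO medians close together.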

How the data were processed

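For every library the authors deposited a table of raw counts, with 46078 genes and 5 summary lines that were left out of library sizes and tests. Reads in no gene were 17.8% to 21.3% of counted reads in the 6 libraries compared. Total RNA was taken with TRIzol and libraries followed standard Illumina preparation, per the labels' protocols. The submitters' processing notes list STAR, TopHat, HTSeq, DESeq2 and GRCm38. Strandedness, tool versions and the aligner behind these counts were not given in the sources used here. Without strand, reads of overlapping genes cannot be told apart. Of 158 genes given with values, 52 have exons that overlap another gene and are uncertain for that reason: Abcb1a, Abcb1b, Ace, Bax, Bhlhe40, Brca2, Car9, Ccnd1, Ccnd2, Cd274, Cdc20, Cdkn1a, Col3a1, Cyp51, Ddit3, Elovl6, Fn1, Fosl1, Gadd45a, Gnl3, Hmgcs1, Hsp90b1, Irs1, Krt8, Lpcat3, Mb21d1, Mcm7, Mmp11, mt-Nd1, Mxd4, Npr2, Parp1, Parp3, Parp4, Pdia4, Plekha6, Pole, Ppp1r15a, Rad54l, Rora, Rpl15, Rpph1, Scd2, Slc2a1, Stat3, Tapbp, Tgfa, Tnr, Top2a, Trp53bp1, Usp18 and Vcam1.

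The 24 cancer-cell libraries (8 groups of 3) entered a single model (edgeR 4.0.16, R 4.3.3) scaled by TMM and tested by quasi-likelihood F. Low genes were dropped by filterByExpr, whose minimum count was 10, which left 15962 genes, 16 residual degrees of freedom and a biological coefficient of variation of 2.61%. Calls are at 0.05 after Benjamini-Hochberg adjustment over all tested genes. The SE is the log2 fold change divided by the square root of F. Alternatives were RLE scaling, library size alone, no filter, a replicate block, only the groups compared, protein-coding genes only, removal of length and GC trends, DESeq2 1.42.0, each library left out, and, added after seeing the data, the fit without the 2 vector DMSO libraries that hold macrophage transcripts. Exon lengths, GC content and coordinates are of GRCm38 and matched 99.45% of tested genes. The fit was tested on simulated data with known changes of 1.2-, 1.5-, 2- and 3-fold in 50 genes each. The main contrast recovered 58%, 66%, 66% and 94% of them, with 4.7% of its calls false. For the olaparib interaction it was 52%, 62%, 60% and 92%, with 5.7% false. Motifs and promoters are from RefSeq sequences of GRCm38.p6. Figures were drawn with matplotlib 3.10.9.

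The members and the 42 gene lists were chosen with earlier results of these data known. Genes are named by rule: a fixed set, the 12 largest rises and falls among called genes whose groups did not overlap and whose higher mean reached 5 CPM (gene-model names left out), up to 4 called genes of each list by adjusted p, and the 8 genes of each sign with the smallest adjusted p per interaction. Lists are described by counts and medians only. Some genes that the rule would name are not reported here.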

Additional observations from a re-analysis of the deposited data

Results flagged for a closer look

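The difference between F133V and vector cells itself differed between olaparib and DMSO by the interaction term in 2122 genes in the positive direction and 1745 in the negative direction. Between cells alone and cells in coculture, both with olaparib, it differed in 4006 genes in the positive and 3485 in the negative direction.

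Genes among the smallest adjusted p values of the olaparib interaction, given as the log2 difference of the genotype effect with olaparib less that with DMSO, were in the positive direction Bhlhe40 (1.08), Egln3 (0.99), Car6 (0.87), Angptl2 (0.80), Tgfbi (0.75), Anpep (0.69), Scd2 (0.58) and Ddit3 (0.56). In the negative direction they were Slco4a1 (-1.36), Gfod1 (-1.22), Krt18 (-1.01), Pcx (-1.003), Akr1b3 (-0.95), Hspa4l (-0.79), Lpin2 (-0.59) and Nrp2 (-0.42). Each of the 16 kept its direction and its call under every alternative listed in the account of the processing.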

How the results depend on the processing

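Counts of called genes stayed within 1.5 times under every alternative except the olaparib interaction with library size alone, where 4207 genes were positive and 883 negative against 2122 and 1745. Leaving out each library in turn gave 5186 to 5361 genes higher and 5065 to 5198 lower under olaparib, 5123 to 5237 and 5205 to 5282 under DMSO, 1858 to 2293 and 1524 to 1824 in the olaparib interaction, and 3514 to 4101 and 3290 to 3565 in the coculture interaction. Without the 2 vector DMSO libraries that hold macrophage transcripts the olaparib interaction called 2762 genes, 2610 of them the same genes in the same direction. Under DMSO 49.8% of calls were higher, against 40.5% with library size alone and 60.7% with length and GC trends removed. DESeq2 gave no adjusted p for 3096 genes of the olaparib interaction.

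With length and GC trends removed, the log2 fold changes of all tested genes under olaparib moved up by a median of 0.114. Directions reversed in that fit for Spop (0.0168), Mcm2 (0.1026) and Mcm7 (0.094). Medians of 8 lists that had been negative became positive: MYC network (8e-04), end joining (0.0257), cholesterol export (0.0257), ribosomal proteins (0.0618), interferon-stimulated genes (0.0653), AP-1 (0.0917), matrix proteins (0.0813) and apoptosis (0.0237). The median of the respiratory chain list was -0.0026 with RLE scaling and -0.029 without F133V library 2, against 0.0038, and that of the macrophage marker list -0.0653 without F133V library 2, against 0.2793. The cause of these changes was not tested.

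Replicate numbers were used as a block in a further fit. Deviations of same-numbered vector and F133V libraries correlated at 0.061, 0.056 and -0.058, and those of differently numbered ones at -0.114 to 0.067. With 3 libraries a group, these values cannot tell a weak pairing from none. With the replicate block 5473 genes were higher and 5286 lower under olaparib, 5367 and 5438 under DMSO, 2145 and 1761 in the olaparib interaction, and 4039 and 3498 in the coculture interaction. The call of Abcb1a was lost (adjusted p = 0.054).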

Other observations

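Some genes had almost no counts in one of the lines. In 17 genes the mean was under 0.5 CPM in F133V cells and at least 5 CPM in vector cells under olaparib, among them Epha3, an ephrin receptor, Sv2c, a synaptic vesicle protein, Add2, Armcx2 and Rapgef4. Of these 17, 11 met the same limits with DMSO and 5 in coculture with olaparib. The reverse held for 2 genes, Fibcd1 and Oaf. Both limits were set after the data were seen.

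Classes of RNA differed in direction. Of 65 small nuclear RNAs tested, 34 were called higher in F133V cells and 6 lower, with a median log2 fold change of 1.59. Of 114 sense intronic transcripts 10 were higher and 48 lower (median -0.48). Protein-coding genes stood at 4924 higher and 4554 lower of 12547 (median 0.02). Small nuclear RNA genes often have near-identical copies, so their single values are uncertain.

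The libraries of the F133V group were not equally alike. The mitochondrial transcript mt-Nd6, picked after its values were seen, read 180.3, 110.5 and 212 CPM in F133V libraries 1, 2 and 3.

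All of the 212 genes that were called in opposite directions with olaparib and DMSO were also called in the interaction. That follows nearly by construction, since differences of opposite sign add up in the interaction. Mmp11, a matrix protease gene, was lower in F133V cells with DMSO (-0.59) and higher with olaparib (0.15), and Antxr2, an anthrax toxin receptor gene, stood at -0.30 and 0.20. Both genes were chosen after their values were seen.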
